A study of Homo sapiens with 4 samples.

Results

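The 36 genes described here encode the machinery of G2 and mitosis: cyclins A2, B1 and B2 with CDK1, the mitotic kinases, the spindle checkpoint, the chromosomal passenger complex, activators and substrates of the anaphase-promoting complex (APC/C), kinetochore proteins, kinesins, spindle and cytokinesis factors and TOP2A. They were taken by symbol from a list that was drawn up with earlier results of these data known, and all 36 were found among the 19775 genes of the array table. The RNA came from U937, a human monocyte-like line derived from a lymphoma, and was read on Affymetrix U133 Plus 2.0 arrays. Each of 4 groups has 1 array: the control without treatment, Sonazoid (a microbubble contrast agent used in imaging, at 0.05%) without ultrasound, ultrasound (1 min at an intensity of 0.3 W/cm2) without Sonazoid, and the combination of these. Treated cells were incubated for 3 h before RNA extraction; for the control cells only culture at the same temperature is stated. No further agent or genetic change is named for any group, no group has a replicate, and no test was made.

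In a dividing cell these genes are transcribed together late in the cycle. Their promoters often hold CCAAT boxes, bound by NF-Y, and a cell cycle genes homology region (CHR), through which the DREAM complex represses them in quiescence and early G1 and the B-MYB and FOXM1 complexes activate them in G2. CDK1 with cyclin B starts mitosis, the spindle checkpoint holds anaphase back until every chromosome is attached, and APC/C then marks cyclin B and securin for destruction.

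The values are signals, which are probe set intensities after 1 scaling factor per array (0.921 to 1.07). Each gene is its brightest probe set, and values under the median of all signals (23.8, the floor) were set to it. All 36 genes lay above the floor, and also above a stricter floor at the 75th percentile (150.5), on every array, with signals from 245 to 6642. The array medians before scaling ran from 22.6 to 26.4. ACTB probe sets at the 3' end of the transcript gave 1.16 to 1.2 times the signal of those at the 5' end. Of 12 myeloid markers 11 were on the table, and 9 of them were above the floor on all arrays, among them ELANE, CTSG, CEBPA and LYZ. FCGR1A was below the floor on all arrays and MPO on all but Sonazoid only. The 11 summed to 37505 in control, to 34182 on the Sonazoid array, to 41267 on the ultrasound array and to 35462 in the combination. Below, 4 signals in a row follow this order: control, Sonazoid, ultrasound, combination. Of 5 T cell and 5 epithelial markers 0 were above the floor on all arrays; of the 4 B cell markers that could be read 2 were (CD79A and PAX5), of 2 erythroid ones 1 (HBB) and of 5 fibroblast and endothelial ones 2 (COL1A1, and PECAM1 at 647 to 809).

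Ultrasound was compared with its absence in 2 pairs of arrays that have no array in common: ultrasound only against control, and the combination against Sonazoid only. Most mitotic genes had lower signals on the arrays with ultrasound, by small amounts. The median log2 difference of the 36 genes was -0.13 for ultrasound only minus control and -0.18 for the combination minus Sonazoid only, where the medians of all genes measured were 0.02 and 0.00. In the first pair 30 of the 36 were below 0 (46.8% of all genes) and in the second 31 (50.3%). In both pairs 28 were below 0, against 28.7% of the 12009 genes measured in both pairs and 32% of those above the stricter floor. PTTG1, AURKB and UBE2C were above 0 in both pairs (30.7% of all genes), and TOP2A and TTK were 1.2-fold lower in both (4.6%). At 1.2-fold or more, 7 genes were lower and 0 higher in the first pair, beside 16.2% of all genes lower and 20.8% higher. In the second pair 10 were lower and 0 higher, beside 16.6% and 17.6%. Among the 7229 genes above the stricter floor on all 4 arrays 10.9% were 1.2-fold lower and 11.9% higher in the first pair, and 9.95% and 8.16% in the second. No mitotic gene reached 2-fold in any pair of arrays, beside 0.721% of all genes 2-fold lower and 1.65% higher in the first pair and 0.711% and 1.46% in the second. Fewer cells in G2 or mitosis and less of these RNAs per cell cannot be told apart in such bulk samples.

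For 23 of the 36 genes both arrays with ultrasound were below both arrays without it, and for 2, AURKB and PTTG1, both were above. Over all genes measured in both pairs the shares were 20.7% and 21.9%, and over genes above the stricter floor 23.3% and 21.7%. With the values as deposited, where the combination array is the brightest, the 23 became 12, and the same share over all genes with an array above the floor went from 17.8% to 11.2%. The mean of the 2 ultrasound differences was below 0 for 30 of the 36 genes, beside 48.7% of all genes. The sign of this mean held for every one of the 36 with the values as deposited, under quantile normalisation and after centring on the genes above the floor. The first and last of these settings move all 36 by the same amount, which was less than the mean nearest 0 (MAD2L1, -0.03). Of the 3, only quantile normalisation moves genes separately. Its median was -0.15, against 0.01 over all genes. At 1.2-fold in this mean 8 of the 36 were lower and 0 higher, beside 11.2% and 14% of all genes. Among those above the stricter floor the shares were 6.68% and 6.78%. With the values as deposited 5 were lower, beside 1175 of all genes, and under quantile normalisation 6, beside 1410 (12009 were measured after scaling). Across the 36 genes the 2 ultrasound differences had a Pearson r of 0.40 and a Spearman rho of 0.47, given as a description over genes that share the same 4 arrays. Over all genes measured in both pairs these were 0.25 and 0.21. Over genes above the stricter floor they were 0.50 and 0.37, so the Pearson r of the 36 was not above that of genes of such signal.

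**Figure D1:**
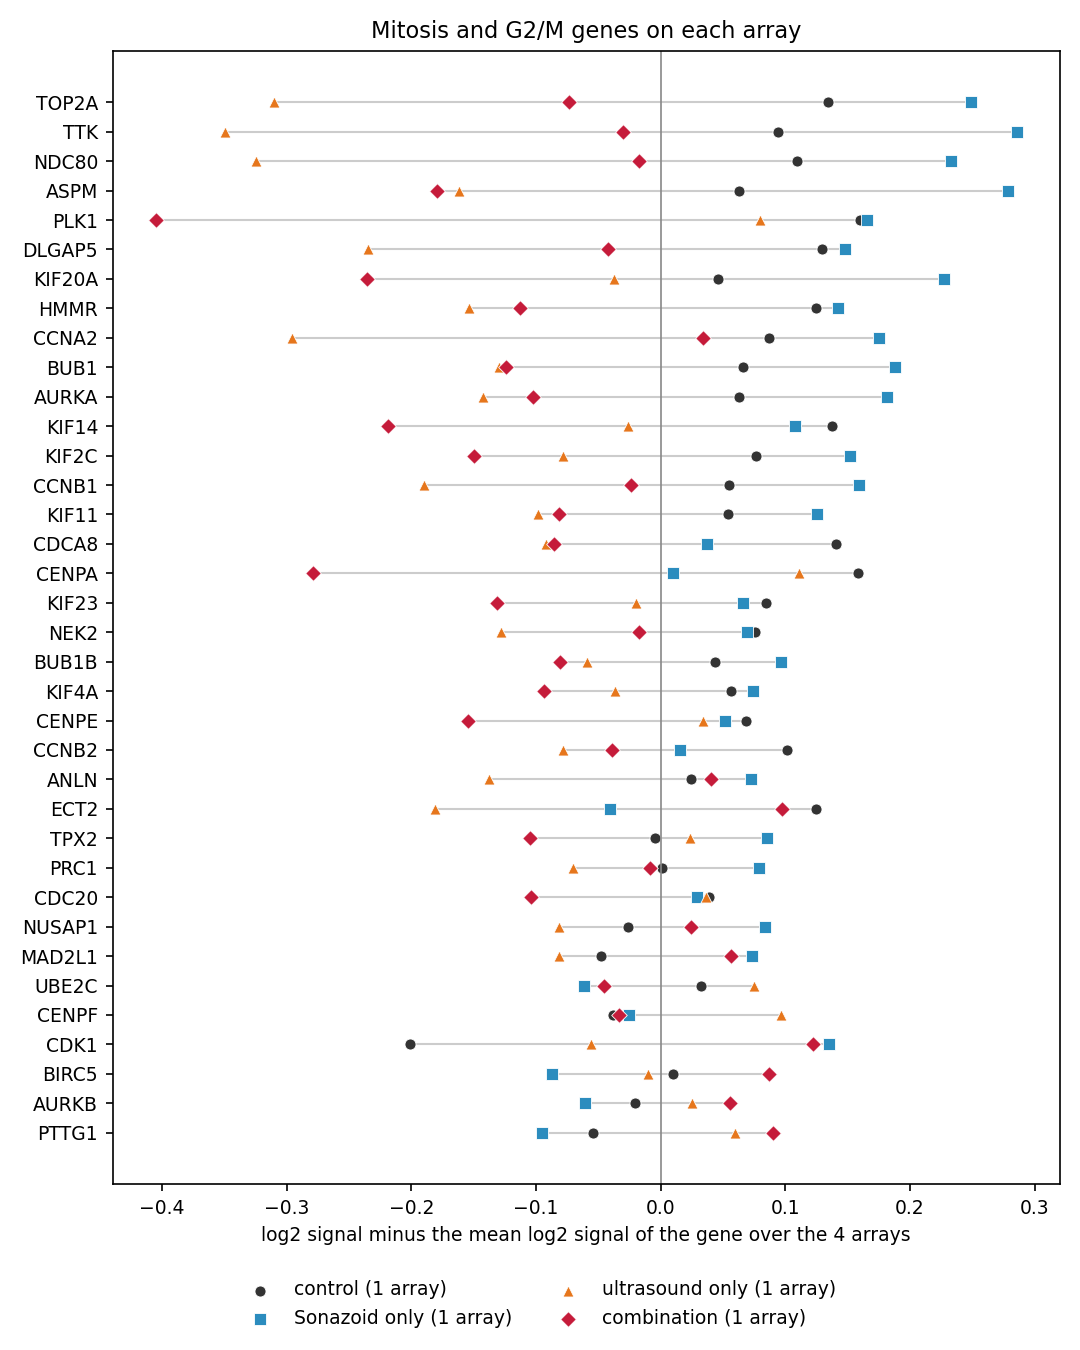
Log2 signal of each of the 36 genes on each array, minus the mean log2 signal of that gene over the 4 arrays, with genes ordered by their mean ultrasound difference from TOP2A (-0.38) to PTTG1 (0.15). Each symbol is 1 array and no error bar can be drawn; ultrasound only (triangles) is the lowest array for 18 genes and the combination (diamonds) for 12, while Sonazoid only (squares) is the highest for 22.

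**Figure D2:**
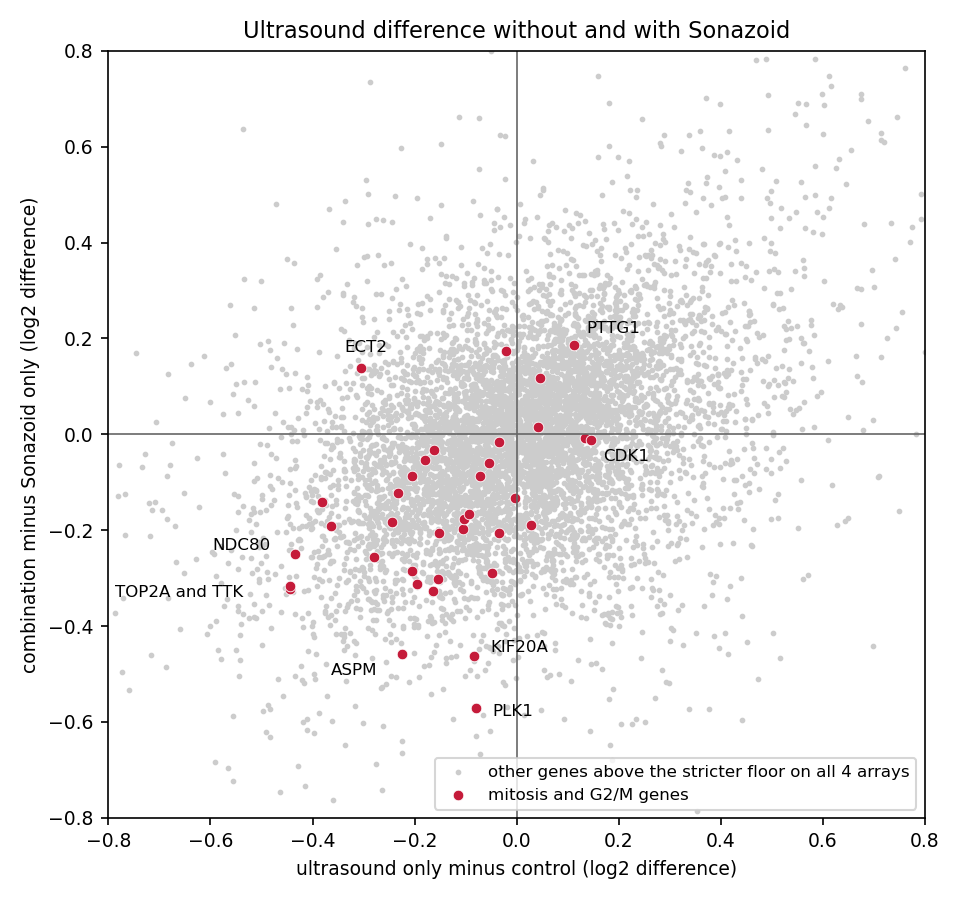
Log2 difference with ultrasound, in the absence of Sonazoid on the horizontal axis and in its presence on the vertical axis, for the 36 mitotic genes (red) and for 7193 other genes above the stricter floor on all 4 arrays (grey), of which 85 lie beyond the axis limits of 0.8 either way. The lower left area, below 0 in both pairs, holds 28 of the 36; ECT2 lies in the upper left and PLK1 and KIF20A far down near the vertical axis.

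Because these genes are known for a shared promoter grammar, the start regions of members with the largest mean ultrasound difference are shown. Of the 36 genes 31 had a promoter entry in the RefSeq table (GRCh38.p14), 35 entries in all since 4 genes had more than 1; AURKA, TTK, BIRC5, UBE2C and TPX2 had none. Each line gives the 160 bases just before the annotated start, 5' to 3' on the strand of the gene. Capitals mark the CCAAT box (CCAAT or its reverse ATTGG) and the CHR core (TTTGAA or its reverse TTCAAA, and TTTAAA, which is its own reverse). The regions are chr17:40417897-40418056 on the minus strand for TOP2A, chr1:197146670-197146829 (minus) for ASPM, chr16:23678729-23678888 (plus) for PLK1, chr14:55191586-55191745 (minus) for DLGAP5, chr5:138178952-138179111 (plus) for KIF20A and chr5:163460472-163460631 (plus) for HMMR. NDC80, which also ranks among the first 8, had none of these letters in its 160 bases.
TOP2A: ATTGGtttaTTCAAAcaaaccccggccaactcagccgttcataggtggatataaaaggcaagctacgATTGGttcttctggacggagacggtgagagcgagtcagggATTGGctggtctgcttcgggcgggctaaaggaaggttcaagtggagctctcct
ASPM: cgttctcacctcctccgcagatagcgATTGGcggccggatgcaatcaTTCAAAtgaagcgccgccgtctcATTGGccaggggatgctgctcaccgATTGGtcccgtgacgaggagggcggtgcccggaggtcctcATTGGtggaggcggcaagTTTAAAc
PLK1: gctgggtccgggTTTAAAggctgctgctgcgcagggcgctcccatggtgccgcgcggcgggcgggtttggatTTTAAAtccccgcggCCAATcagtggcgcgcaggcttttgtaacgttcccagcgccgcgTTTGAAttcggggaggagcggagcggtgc
DLGAP5: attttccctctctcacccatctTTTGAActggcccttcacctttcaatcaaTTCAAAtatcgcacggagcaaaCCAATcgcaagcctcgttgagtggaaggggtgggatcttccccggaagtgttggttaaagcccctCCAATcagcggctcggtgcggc
KIF20A: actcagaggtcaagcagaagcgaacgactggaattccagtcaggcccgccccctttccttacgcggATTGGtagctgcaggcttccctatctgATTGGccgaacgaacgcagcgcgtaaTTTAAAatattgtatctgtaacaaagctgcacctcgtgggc
HMMR: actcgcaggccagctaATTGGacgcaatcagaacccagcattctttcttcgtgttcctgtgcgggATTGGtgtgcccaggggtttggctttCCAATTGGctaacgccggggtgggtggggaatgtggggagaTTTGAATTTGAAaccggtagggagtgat

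In these stretches TOP2A held 3 CCAAT boxes, ASPM 4, PLK1 1, DLGAP5 2, KIF20A 2 and HMMR 4, a pair of which overlap on opposite strands as CCAATTGG. A TTTGAA core was found in 1 copy for TOP2A, ASPM and PLK1 and in 2 for DLGAP5 and HMMR, adjacent in HMMR. TTTAAA was found in 1 copy for KIF20A, which has no TTTGAA here, in 1 for ASPM and in 2 for PLK1. Over the whole windows of 300 bases (250 before the start and 50 from it on, both strands), CCAAT stood in 29 of the 35 member promoters (82.9%) and in 34.7% of 22199 promoters of protein-coding genes. TTTGAA stood in 24 (68.6%) against 12.4%, and TTTAAA in 15 (42.9%) against 10.2%. CCAAT together with either core stood in 24 (68.6%) against 7.98%. The E2F-type motifs TTTGGCGC and TTTCGCGC, which mark many S phase genes, stood in 3 entries (8.57%) against 1.5%. These were 2 overlapping entries of CDK1, which hold the same TTTCGCGC site, and 1 of NUSAP1. The 2 entries of PTTG1, of AURKB and of ECT2 also overlap, so the same site can count in both. The median mean ultrasound difference was -0.15 for 22 genes with TTTGAA and -0.21 for 9 without it. Of these 9, KIF2C, CENPE, CCNB1, KIF20A and PTTG1 hold TTTAAA, so this is not a split by the presence of a CHR core. For CCAAT the medians were -0.16 for 26 genes with it and -0.14 for 5 without it. Neither difference was tested. A match is a match of letters only, and binding was not measured.

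Among the kinases, TTK (MPS1), which starts the spindle checkpoint at unattached kinetochores, stood at 967, 1105, 711 and 888. Both ultrasound arrays were below both others, 1.36-fold lower than control without Sonazoid and 1.24-fold lower in its presence. PLK1, the Polo-like kinase of centrosome maturation and mitotic entry, stood at 664, 667, 628 and 449. The first 3 arrays were within 1.1-fold of each other, and the combination alone stood lower, by 1.49-fold against Sonazoid only and 1.40-fold against ultrasound only. BUB1, a kinase of the checkpoint and the inner centromere, had log2 differences with ultrasound of -0.20 and -0.31 without and with Sonazoid, AURKA, the centrosomal Aurora kinase, -0.21 and -0.28, and the centrosome kinase NEK2 -0.20 and -0.09. All 5 kinases of this group had both ultrasound arrays below both others. The kinases AURKB and CDK1, placed in other groups, did not. A second bright probe set of AURKA had -0.23 and -0.39, one of BUB1 -0.29 and -0.18, and one of NEK2 -0.32 and -0.08.

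CDK1 had another order of arrays than its cyclins. Cyclin A2 (CCNA2), which drives S and G2, stood at 2127, 2260, 1632 and 2050. Cyclin B1 (CCNB1), the mitotic cyclin, stood at 4754, 5110, 4014 and 4503, and cyclin B2 (CCNB2) at 6642, 6257, 5864 and 6025. For all 3 cyclins both arrays with ultrasound were below both without, by at most 1.30-fold (CCNA2, ultrasound only against control). CDK1 stood at 3684, 4651, 4075 and 4610: control was its lowest array and the treated arrays were 1.11-fold to 1.26-fold above it. That order was not seen in its other bright probe sets, at 2097, 2160, 2068 and 2167 for one and 1542, 1508, 1441 and 1594 for the other. The second probe set of CCNA2 (1793, 1824, 1697 and 1558) kept both ultrasound arrays lowest, with the combination below ultrasound only.

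TOP2A, the topoisomerase that untangles sister chromatids, had the mean ultrasound difference farthest from 0 (log2 -0.38). It stood at 3423, 3706, 2516 and 2964. Its other bright probe set stood at 2764, 2658, 2485 and 2611, in which both ultrasound arrays were again the lowest but by log2 -0.15 and -0.03 where the brightest had -0.44 and -0.32. Among kinetochore genes NDC80, the microtubule-binding subunit of the NDC80 complex, stood at 1076, 1172, 797 and 986, with both ultrasound arrays lower. CENPA, the centromeric histone H3 variant, stood at 1403, 1266, 1358 and 1036, with both Sonazoid arrays below both others, the combination lowest, and ultrasound only 1.03-fold below control. The kinetochore motor CENPE differed by -0.03 and -0.21, and CENPF, a kinetochore protein of G2, by 0.13 and -0.01, with control, Sonazoid only and the combination between 1515 and 1528.

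All 6 kinesins had both ultrasound arrays below both others. Their median log2 difference was -0.13 without Sonazoid, with 0 of 6 past 1.2-fold, and -0.25 in its presence, with 3 of 6 past it. Of all genes 16.2% and 16.6% were 1.2-fold lower in these pairs, and 10.9% and 9.95% of those above the stricter floor. With the values as deposited KIF20A stayed past 1.2-fold in the presence of Sonazoid (-0.38), while KIF14 (-0.24) and KIF2C (-0.22) did not. KIF20A (MKLP2), which carries the passenger complex to the midzone, stood at 858, 973, 810 and 706. KIF14, a cytokinesis kinesin, had log2 differences of -0.16 and -0.33, and its second bright probe set -0.37 and -0.35. KIF2C (MCAK), a microtubule depolymerase, had -0.15 and -0.30, with -0.12 and -0.18 in its other probe set. KIF11 (Eg5), which separates the spindle poles, had -0.15 and -0.21, KIF23 of centralspindlin -0.10 and -0.20, and the chromokinesin KIF4A -0.09 and -0.17.

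Of the spindle factors, ASPM, which focuses spindle poles, stood at 601, 698, 514 and 508. DLGAP5 (HURP), which stabilises kinetochore fibres, stood at 1619, 1639, 1257 and 1437. HMMR, the hyaluronan-mediated motility receptor that also organises spindle poles, stood at 2304, 2332, 1900 and 1955. For these 3 genes and for PRC1, the midzone bundler (-0.07 and -0.09), both ultrasound arrays were below both others. The second bright probe set of HMMR (970, 1016, 885 and 981) did not keep this order, with the combination above control and differences of -0.13 and -0.05. NUSAP1 (-0.05 and -0.06) and TPX2, which activates AURKA at the spindle (0.03 and -0.19), had arrays that overlapped. The checkpoint protein BUB1B (BUBR1) had -0.10 and -0.18, while MAD2L1 (MAD2), its partner in APC/C inhibition, had -0.03 and -0.02. In cytokinesis the scaffold ANLN had -0.16 and -0.03, with overlapping arrays, and 0.24 and -0.08 in its other probe set. ECT2, the exchange factor for RhoA, stood at 536, 478, 434 and 526, lowest with ultrasound only and near control in the combination.

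The genes of anaphase onset and of the passenger complex differed among themselves, with 4 of the 6 above 0 in the mean ultrasound difference. Of all genes 48.7% were below 0 in it. Outside these groups CDK1 and CENPF were also above 0. PTTG1 (securin), the APC/C substrate that holds separase, stood at 4343, 4219, 4697 and 4798, so that both ultrasound arrays were the highest by a margin of at most 1.14-fold within a pair. AURKB, the kinase of the passenger complex, stood at 912, 887, 941 and 961, with the same order. BIRC5 (survivin), its partner, differed by -0.02 and 0.17, the ubiquitin-conjugating enzyme UBE2C by 0.04 and 0.02, and the APC/C activator CDC20 by 0.00 and -0.13. CDCA8 (borealin), the third passenger in this set, was lower in both pairs (-0.23 and -0.12). The 3 APC/C genes had a median mean ultrasound difference of 0.03 and the 3 passenger genes of 0.08, where the 5 genes of the kinase group had -0.25 and the kinesins -0.20. The kinase group leaves out AURKB (0.08), placed with the passenger genes, and CDK1 (0.07), placed with the cyclins. The contrast therefore depends on how genes were grouped. Whether these groups differ was not tested.

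Sonazoid was compared with its absence in the other 2 disjoint pairs. The median of the 36 genes was 0.03 for Sonazoid only minus control and 0.03 for the combination minus ultrasound only, and the values as deposited gave 0.13 and 0.25 with medians over all genes of 0.09 and 0.19. At 1.2-fold 1 gene, CDK1, was higher and 0 lower in the first pair, beside 13.9% of all genes each way (2-fold: 0.652% higher and 0.715% lower). In the second pair 4 were higher and 2 lower, beside 15.4% and 20% (2-fold: 0.7% and 1.16%). The higher ones were CCNA2, TTK, NDC80 and ECT2, and the lower ones PLK1 and CENPA. Both arrays with Sonazoid were above both without it for 4 of the 36 genes, ANLN, NUSAP1, MAD2L1 and CDK1 (16% of all genes), and below for 3, CENPA, CDC20 and UBE2C (18.5%). The second bright probe sets of ANLN (589, 677, 698 and 641) and MAD2L1 (3141, 2868, 2932 and 3214) did not keep this order. That of NUSAP1 (2369, 2600, 2121 and 2427) kept it, as did one of CDK1 (2097, 2160, 2068 and 2167) but not the other bright one. The Sonazoid difference was above 0 in both pairs for 15 genes (27% of all) and below 0 in both for 6 (28.8%).

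The combination was below control for 28 of the 36 genes, beside 50.4% of all genes, and the median of the 36 was -0.13. In the unscaled deposit, however, 12 were below 0 and the median was 0.04. Omitting the scaling shifted all genes by 0.17, and the 36 then lay 0.12 below the median of all genes. At 1.2-fold 4 genes were lower in the combination than in control (PLK1, CENPA, KIF14 and KIF20A) and 1, CDK1, higher, beside 16.9% and 18.4% of all genes (2-fold: 0.872% and 1.39%). The departure from additivity, the ultrasound difference with Sonazoid minus that without it, had a median of -0.02 over the 36. It was farthest below 0 for PLK1 (-0.49), KIF20A (-0.38) and CENPA (-0.24) and farthest above 0 for ECT2 (0.44); the first 3 and ECT2 kept these signs with the values as deposited. Past 1.2-fold it held 2 genes below and 1 above, beside 22.2% and 18.6% of all genes. The balance turned with the values as deposited, to 1 below and 5 above, beside 1789 and 3429 of all genes (12009 were measured after scaling). The mean of probe sets gave 5 and 2, beside 2559 and 2267 of all genes.

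The brightest probe set of a gene could be checked against its others. The 36 genes have 70 probe sets, and 18 others of 15 genes lay above the stricter floor on all arrays. Of these 18, 15 had a mean ultrasound difference below 0, with a median of -0.14, and 12 had the sign of the brightest one. Both ultrasound arrays were below both others in 8 of the 18, against 23 of 36 for the brightest probe sets. The median absolute gap between such a probe set and the brightest was 0.08 on the log2 scale. It is of the size of many differences above.

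Other mitotic genes, from lists written with earlier results of these data known, were placed beside the 36; the shares of all genes to read them against are 20.7% lower and 21.9% higher on both ultrasound arrays, and the median 0.01. Of 40 further genes of spindle, kinetochore and cytokinesis 19 had both ultrasound arrays below both others (47.5%) and 3 above, with a median mean ultrasound difference of -0.10. G2E3, a ubiquitin ligase of G2, stood at 594, 759, 383 and 392. SPC24, a subunit of the NDC80 complex, stood at 244, 285, 165 and 176, so its 2 ultrasound arrays were well below the others. The kinetochore genes CENPI and KNSTRN had mean differences of -0.40 and -0.36, and the proliferation marker MKI67, chosen after its values were seen, 0.04. Of 20 cohesin and condensin genes 8 were lower on both ultrasound arrays and 2 higher, with a median of -0.09. SGO2, the shugoshin that protects centromeric cohesin, stood at 873, 1039, 623 and 703. SMC3, a cohesin subunit, stood at 2262, 2426, 1406 and 2146, lower mainly with ultrasound only. SGO1 had a mean difference of -0.30, with overlapping arrays, and the condensin II subunit NCAPG2 0.23. Of 14 APC/C genes measured 3 were lower (21.4%, near the share of all genes) and 2 higher on both ultrasound arrays, with a median of -0.05. FZR1, the G1 activator CDH1, was at 0.36 with overlapping arrays, ANAPC7 at -0.25, and CDC27 and CDC23 each at -0.18.

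Regulators of the programme were read from the same arrays. Of 18 transcription regulators 3 were lower (16.7%, where all genes gave 20.7%) and 3 higher on both ultrasound arrays, with a median of -0.05. MYBL2 (B-MYB) stood at 1267, 1078, 991 and 943, lower on both ultrasound arrays, while FOXM1 (named after seeing its values) stood at 539, 565, 573 and 496. E2F7 (0.55) was higher with small signals, from below the floor to 50. E2F5 and LIN54 each had a mean difference of -0.28 with overlapping arrays, and LIN54 differed by 0.09 without Sonazoid and -0.64 with it. Of 19 G2 checkpoint genes measured in both pairs 6 were higher and 3 lower on both ultrasound arrays. CDKN1A (p21), the CDK inhibitor, stood at 76.9, 32.9, 147 and 132.7, GADD45A at 159, 194, 266 and 249, and GADD45B at 564, 577, 832 and 734, with both ultrasound arrays highest for each. PLK3, a stress-responsive Polo-like kinase, stood at 44.2, 75.8, 130 and 87.4. Of 29 G1/S and replication genes 2 were lower (6.9%) and 4 higher on both ultrasound arrays, beside 20.7% and 21.9% of all genes, and their median mean ultrasound difference was 0.03, near the 0.01 of all genes. Cyclin E2 (CCNE2), of the G1/S transition, stood at 768, 776, 888 and 1072. The mean differences of E2F2, E2F1 and CCND1 were 0.25, 0.21 and 0.16. E2F2 and E2F1 had overlapping arrays, with the combination just below control, and CCND1 had signals near the floor. The difference between the lists was not tested.

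**Figure D3:**
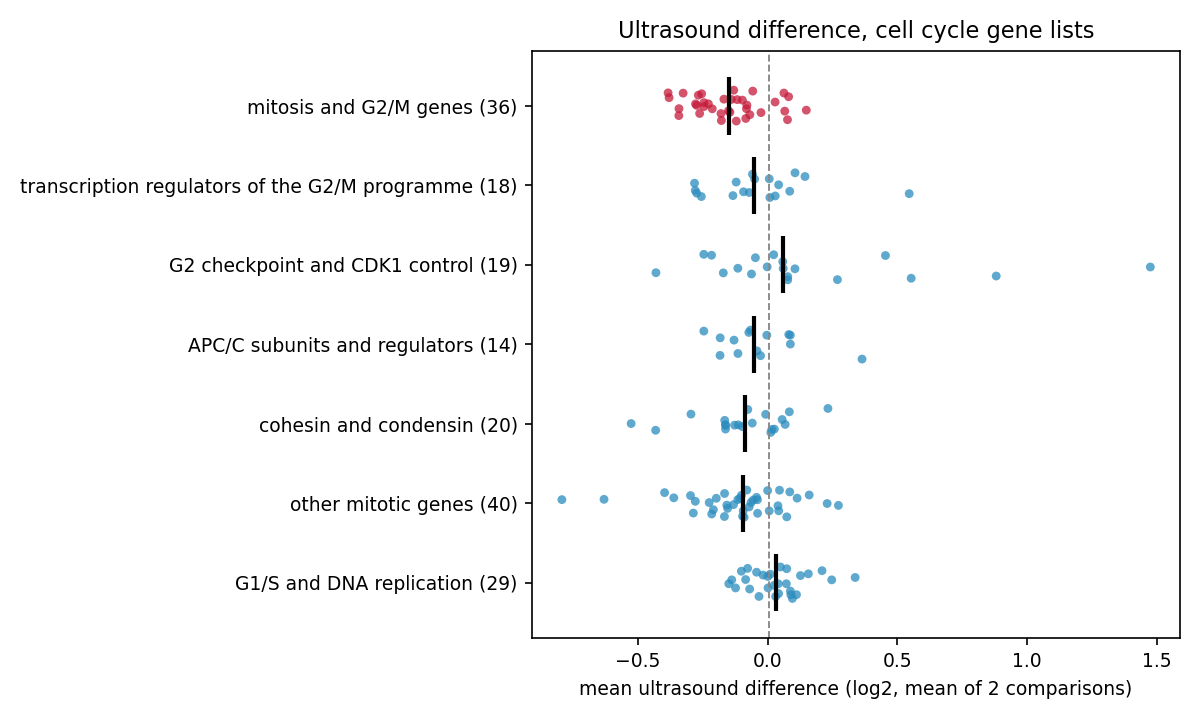
Mean ultrasound difference (log2, the mean of ultrasound only minus control and combination minus Sonazoid only) of the 36 mitosis and G2/M genes (red) and of 6 other cell cycle lists (blue), 1 point per gene measured in both pairs, with the number of genes in brackets. Black bars are list medians, from -0.15 for the 36 genes to 0.06 for the G2 checkpoint list, and the dashed line is the median of all genes (0.01); vertical scatter within a row has no meaning.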

How the data were processed

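The deposited values are linear intensities, 1 per probe set and array, for 4 arrays and 54675 probe sets. Per the labels' protocols, RNA was cleared of DNA with DNase and amplified from its 3' end with the array maker's one-cycle kit. The summary method and any scaling of arrays before deposit were not given in the sources used here. Precision is limited by the number of arrays, 1 in each group. The trimmed means (2% at each end) differed 1.16-fold, over the limit of 1.1, so each array was multiplied to their geometric mean. Values under the median were set to it and log2 was taken. The 41097 probe sets with 1 symbol were used, 41043 renamed through Entrez identifiers with the RefSeq table; the 1801 with several symbols, the 11777 with none and the 62 control probe sets were not. A gene was measured in a comparison when above the floor on at least 1 of its arrays. Calls were at 1.2-fold and 2-fold. Groups came from the treatment label. Alternatives changed the scaling, the floor and the choice of probe set. Members and lists were chosen with earlier results of these data known. All members may be named; values on all arrays are given for those with the largest mean ultrasound (8) or Sonazoid (4) difference or departure (4), the 3 of highest signal and 5 well known ones, and up to 4 genes of each other list. The steps were tested on simulated data and run in Python 3.11.15 with numpy 2.4.6 and pandas 2.3.3.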

Additional observations from a re-analysis of the deposited data

Results flagged for a closer look

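ECT2 was the member with opposite differences in both kinds of pair, each at least 0.1 on the log2 scale and 1 in each kind of pair past 1.2-fold. With ultrasound it differed by -0.31 without Sonazoid and by 0.14 with it, and with Sonazoid by -0.16 without ultrasound and by 0.28 with it. The difference was not tested, and each value compares single arrays. The dimmer probe set of ECT2, at 79.9, 115, 81.5 and 87.8 (control, Sonazoid, ultrasound, combination), did not have this order.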

How the results depend on the processing

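The median ultrasound difference of the members kept its sign under all 7 alternatives. It ran from -0.17 to -0.12 without Sonazoid and from -0.20 to -0.10 with it. For the mean of both it ran from -0.16 to -0.13. The stricter floor and no floor could not change these values, since all 36 members lay above the stricter floor on every array. Leaving out the scaling or centring moved all 36 by 1 amount per pair. The values as deposited moved most other results. They gave 3 members 1.2-fold lower and 1 higher in the combination minus Sonazoid only, beside 1605 and 3169 of all genes (12931 were measured after scaling). For Sonazoid only minus control they gave 4 higher and 0 lower, beside 2705 and 1232 of all genes (12875 were measured after scaling). For the combination minus ultrasound only the median was 0.25, where that of all genes was 0.19. There 14 members were higher and 1 lower, beside 5156 and 1268 of all genes (13151 were measured in this pair after scaling). For the combination minus control the median was 0.0439, with 3 higher and 1 lower, beside 4602 and 1138 of all genes (12962 were measured after scaling). The departure from additivity had a median of 0.10, as it had over all genes. Under this setting 19.8% of all genes past 1.2-fold in the combination minus control were lower, against 47.9% after scaling, and 33.6% against 48.6% in the combination minus Sonazoid only, 31.3% against 49.9% in Sonazoid only minus control, and 19.7% against 56.4% in the combination minus ultrasound only. Gene-specific probe sets, available for 26 members, gave 1 member (ASPM, on a dim probe set) past 2-fold in the combination minus Sonazoid only and 1 (the same gene) in the combination minus control. For Sonazoid only minus control they gave 3 members 1.2-fold higher, beside 1543 of all genes. The mean of probe sets gave 1 higher for ultrasound only minus control and 3 for Sonazoid only minus control, beside 2600 and 1719 of all genes. Counts past 1.2-fold in the mean ultrasound difference and in the departure were recomputed after seeing the data. The values as deposited gave 5 members lower in the mean, beside 1175 of all genes. In the departure they gave 1 lower and 5 higher, beside 1789 and 3429. For the departure gene-specific probe sets gave 4 of the 26 members lower and 0 higher, beside 2137 and 1894 of all genes. The mean of probe sets gave 5 lower and 2 higher, beside 2559 and 2267. The cause of these moves was not tested. No fit with a replicate block was made, since each group has 1 array and the labels give no replicate numbers. Differences of the size seen here cannot be told from array-to-array variation without replicates.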

Other observations

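Some dim probe sets of members did not follow the brightest one. One of BIRC5 stood at 111, 116, 76.8 and 81.1 (control, Sonazoid, ultrasound, combination), lower on both ultrasound arrays, while its brightest stood at 748, 700, 738 and 789 and 2 further ones at 285, 279, 295 and 322 and at 246, 268, 255 and 241. One of ASPM stood at 74.9, 93.8, 51 and 27.8, a wider range than the 601, 698, 514 and 508 of its brightest. One of CENPF stood at 305, 257, 233 and 261, where its brightest had its highest signal with ultrasound only. One of AURKB stood at 32.6, 76.8, 61.1 and 48.3, close to the floor.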
